A study of Mus musculus with 4 samples.

Results

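The genes described here are 10 regulators and markers of the primitive endoderm and of the visceral endoderm that forms from it. They are the transcription factors Gata4, Gata6, Sox17, Sox7 and Hnf4a, the receptor Pdgfra, the endocytic proteins Dab2, Cubn and Amn, and the basement membrane component Lama1. They were taken by gene symbol, with no threshold on their values but with earlier results of these data known, and all 10 were found once each among the 55401 genes of the count table. RNA was sequenced from E14 cells, a line of mouse embryonic stem cells (mESCs), in 2 libraries of WT cells and 2 libraries of Haspin-KO cells, numbered as replicates 1 and 2 in each group. Haspin is the kinase that phosphorylates histone H3 at Thr3 in mitosis. In Haspin-KO cells it was disrupted by CRISPR/Cas9 with a pair of guide RNAs, and single clones without the phosphorylated histone were picked. The labels do not say which clone each Haspin-KO library came from, nor whether the libraries of a group are separate cultures, so that p-values measure only the spread between these libraries. Both groups grew in medium with serum, LIF and 2i, the inhibitors PD0325901 (of MEK) and CHIR99021 (of GSK3). Passaging was on a feeder layer of mouse embryonic fibroblasts (MEFs) whose division was blocked, or on gelatin for assays, and which of these preceded RNA extraction is not given.

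The primitive endoderm is the layer of the blastocyst that separates from the epiblast and gives rise to the visceral and parietal endoderm of the yolk sac. Epiblast cells secrete Fgf4, which acts through FGF receptors and ERK signalling on neighbouring cells, where Gata6 rises, Nanog falls, and Sox17, Gata4 and Sox7 follow. mESCs correspond to the epiblast, a small share of cells in such cultures can enter an endoderm-like state, and inhibition of MEK is known to suppress that state. The comparison of WT with Haspin-KO mESCs asked whether genes of this lineage were already changed in undifferentiated cells without Haspin.

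At the level of single genes, no primitive endoderm gene passed the test between Haspin-KO and WT mESCs. The most abundant, Lama1, was at 12.03 ± 0.843 FPKM in WT cells and at 10.1 ± 0.0635 FPKM without Haspin (mean ± SD over 2 libraries in each group). The early regulator Gata6 was at 0.289 ± 0.198 FPKM in WT and 0.355 ± 0.171 FPKM in Haspin-KO cells, and Gata4 was at 1.12 ± 0.340 and 0.806 ± 0.262 FPKM. FPKM are counts scaled by the exonic length of the gene and the total of the library, as the authors computed them, and levels of different genes are compared on this scale only. Of the 10 genes, 8 passed the filter on low counts and entered edgeR's quasi-likelihood test on the raw counts, and Sox7 and Amn did not. The adjusted p (Benjamini-Hochberg over the 15580 genes tested) was under 0.05 for 0 of the 8 genes on the lower side and for 0 on the higher side, against 1.51% and 0.988% of all genes tested (2.5% in either direction). At an unadjusted p under 0.05, 1 gene was lower (Lama1) and 1 was higher (Cubn), against 10.4% of all genes in each direction. DESeq2 gave an adjusted p to 4 of the 10 genes and called 0, with 1 at an unadjusted p under 0.05 (Lama1), whereas it called 2.19% of the 12551 genes it adjusted lower and 1.58% higher. In limma's test on log2(FPKM + 0.1), 4 of the 10 genes passed the minimum of 0.5 FPKM in 2 libraries, 0 were called and 1 had an unadjusted p under 0.05. Without the filter on low counts, edgeR called 0 of the 10 genes, against 2.53% of 28670 genes lower and 1.56% higher. When the replicate number was added to edgeR's model as a block, 2 of the 8 genes were called lower and 1 higher, against 11.2% and 11.4% of all genes tested.

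Library totals lay between 14207828 and 21834847 counts. Haspin itself (ENSMUSG00000050107) checked the labels, since its mean fell from 37.9 ± 3.07 CPM to 12.5 ± 3.02 CPM (log2 fold change -1.60, adjusted p = 0.00154 by edgeR). CPM are counts scaled to the TMM-normalized total of the library, without regard to gene length, and are used to compare libraries. The cells expressed the defining genes of mESCs, with Pou5f1 at 466.0 ± 16.0 FPKM in WT and 424.7 ± 7.06 FPKM in Haspin-KO cells, and Nanog at 397.0 ± 32.8 and 371.6 ± 48.6 FPKM. Neither passed the test. Of 16 epiblast pluripotency genes 0 passed it in edgeR (3 at an unadjusted p under 0.05, against 10.4% of all genes in each direction). By DESeq2 1 of them, Klf4, was lower in Haspin-KO cells (log2 fold change -0.30, adjusted p = 0.0335, against 0.0604 in edgeR). These libraries are bulk RNA, in which fewer cells of a type and less RNA per cell cannot be told apart.

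**Figure D1:**
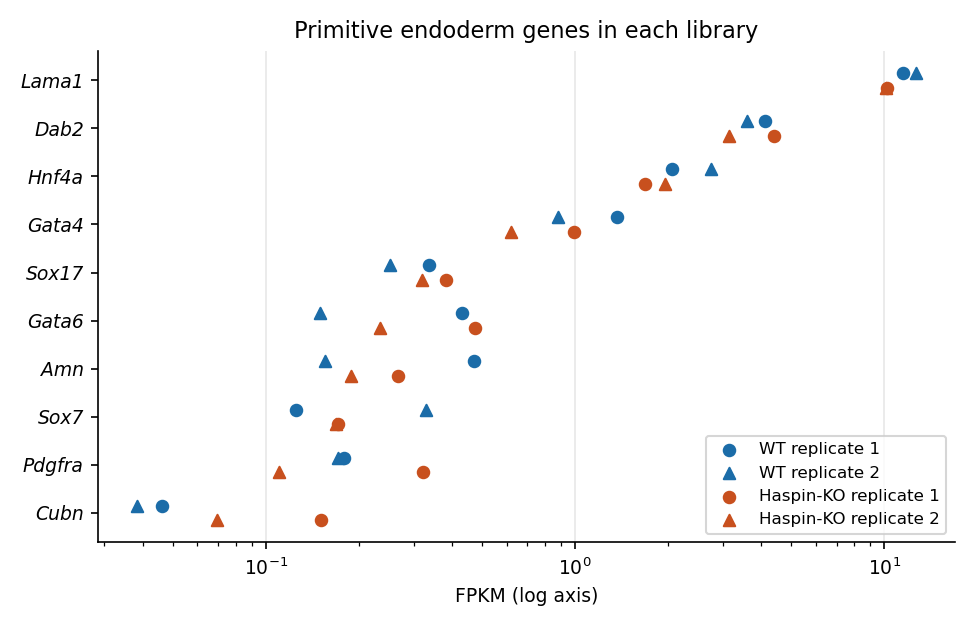
FPKM of the 10 primitive endoderm genes in each library on a log axis, in WT (blue) and Haspin-KO (orange), with circles for replicate 1 and triangles for replicate 2. Lama1 sits between 10.1 and 12.6 FPKM in all libraries, Cubn between 0.0384 and 0.151, and the colours are mixed for most genes.

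Per length, the genes spanned a wide range of levels. In WT cells the order by mean FPKM was Lama1, Dab2, Hnf4a, Gata4, Amn, Sox17, Gata6, Sox7, Pdgfra and Cubn. Each of the first 4 lay above the next gene in both WT libraries, with Dab2 at 3.84 ± 0.359 FPKM and Hnf4a at 2.41 ± 0.491 FPKM. From Amn (0.314 ± 0.224 FPKM) through Pdgfra (0.175 ± 0.00474 FPKM), neighbours in the order overlapped between libraries and were not separated beyond their spread. Cubn, at 0.0422 ± 0.00540 FPKM, lay below all others. In Haspin-KO cells the same 4 genes led in the same order and Cubn was again the lowest. The mean FPKM over all libraries was over 1 for 3 of the genes and under 1 for 7, against a median of 4.86 FPKM over all genes tested. All 10 genes had more than 3 counts, the floor taken for detection, in every library, with 5 counts as the lowest value.

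Of these genes, Gata4, Sox17 and Pdgfra are among those for which the study designed RT-qPCR primers, and the primers are shown because they mark which stretch of each transcript that assay reads, whereas the RNA-seq counts cover all exons. Coordinates are in GRCm38, from matches to the GENCODE transcripts, and sequences run 5′ to 3′ in lower case, with nothing marked.
Gata4-F: cagcagcagcagtgaagagatg
Gata4-R: accaggctgttccaagagtcc
Sox17-F: ggacacgactgcggagtgaa
Sox17-R: ggtcggcaaccgtcaaatg
Pdgfra-F: ctttgtgcctctcgggatga
Pdgfra-R: aggttacttgagtctccggatctg
The Gata4 primers lie in exons 6 and 7 of the 7 exons of the transcript (chr14:63201541-63201562 and chr14:63200412-63200432, gene on the minus strand) and span 225 bases of coding sequence in the spliced transcript. The Sox17 primers lie in the last of 5 exons (chr1:4491801-4491820 and chr1:4491704-4491722, minus strand) and span 117 bases. The forward primer is in coding sequence, and the reverse primer has 4 of its 19 bases in coding sequence and the others past its end. The Pdgfra primers both lie in coding sequence in exon 4 of the 23 exons of the transcript (chr5:75166524-75166543 and chr5:75166601-75166624, plus strand) and span 101 bases.

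GATA4 and GATA6 bind the same core DNA motif, so the promoters of the other genes were searched for it. The motif was the core GATA with A or T before it and A or G after it, on either strand, in the RefSeq promoters of GRCm38.p6, 300 bases each. Of the 10 genes, 5 had promoters in the table, 7 in all (Hnf4a and Dab2 have 2 each, and Cubn, Pdgfra and Amn 1 each). The motif was in 2 of the 7 promoters (28.6%), 1 of Hnf4a and 1 of Dab2, against 29.8% of the 32851 promoters in the table. Capitals mark the motif in the windows below, which are printed because Hnf4a and Dab2 are among the more abundant of these genes.
Hnf4a (chr2:163506793-163506822, plus strand): gaagaatcaataAGATAAccgggcggggtg
Dab2 (chr15:6299598-6299627, plus strand): tgatttttcttcTGATAAcaggaataggag
The match in Hnf4a begins 52 bases before the RefSeq start and that in Dab2 179 bases before it. The same Dab2 promoter holds another match, on the minus strand, past the start. These are matches of letters, and no binding was measured.

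Hnf4a (ENSMUSG00000017950, chromosome 2 from 163506808 to 163572910, plus strand) encodes a nuclear receptor that the visceral endoderm requires and that later directs liver genes. It had 217 and 232 counts in the WT libraries and 115 and 136 in the Haspin-KO libraries, that is 9.93 and 13.4 CPM against 8.01 and 9.53 CPM. Both Haspin-KO values lay below the WT values, by a small margin. Haspin-KO differed from WT by -0.40 on the log2 scale (standard error 0.19, 95% interval -0.84 to 0.026), with an adjusted p of 0.265.

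Gata4 (ENSMUSG00000021944, chromosome 14 from 63198922 to 63271692, minus strand) encodes a zinc finger factor that acts after Gata6 in the primitive endoderm. Its libraries had 116 and 60 counts in WT and 55 and 35 in Haspin-KO, or 5.31 and 3.46 CPM against 3.83 and 2.45 CPM. The groups overlapped, with Haspin-KO replicate 1 above WT replicate 2. Its log2 fold change was -0.49 (95% interval -1.18 to 0.19, standard error 0.31, adjusted p = 0.388), which as a ratio of Haspin-KO to WT leaves a range from 0.442 to 1.14.

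Gata6 (ENSMUSG00000005836, chromosome 18 from 11052064 to 11085635, plus strand) is the factor that starts the primitive endoderm programme. It had 61 and 17 counts in the WT libraries and 44 and 22 in the Haspin-KO libraries, or 2.79 and 0.981 CPM against 3.06 and 1.54 CPM. In each group replicate 1 was the higher library, and the groups overlapped. For Gata6 the log2 fold change was 0.25 (95% interval -0.85 to 1.34, standard error 0.49, adjusted p = 0.814). Its direction was not stable, since it was -0.28 without WT replicate 2 and -0.33 without Haspin-KO replicate 1, and 1.22 without WT replicate 1.

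Sox17 (ENSMUSG00000025902, chromosome 1 from 4490931 to 4497354, minus strand) encodes an HMG box factor of the primitive and the definitive endoderm. The libraries had 35 and 21 counts in WT and 26 and 22 in Haspin-KO, or 1.60 and 1.21 CPM against 1.81 and 1.54 CPM, and the groups overlapped. Sox17 changed by a log2 value of 0.24 (95% interval -0.53 to 1.01, standard error 0.34), which did not pass the test (adjusted p = 0.736). A transcript on the other strand, Gm37587, overlaps 16.8% of the exonic bases of Sox17, and without a stated strand setting reads from both cannot be told apart. Sox7 (ENSMUSG00000063060, chromosome 14 from 63943673 to 63950732, plus strand), a close relative of Sox17, had 9 and 19 counts in WT and 8 and 8 in Haspin-KO, or 0.412 and 1.10 CPM against 0.557 and 0.560 CPM. Both Haspin-KO values of Sox7 lay between the WT values. In a fit without the filter on low counts its log2 fold change was -0.41 (95% interval -1.50 to 0.68, standard error 0.54, adjusted p = 0.785).

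Pdgfra (ENSMUSG00000029231, chromosome 5 from 75152292 to 75198215, plus strand) encodes the PDGF receptor alpha, an early surface marker of the primitive endoderm that fibroblasts also express. It had 39 and 30 counts in the WT libraries and 46 and 16 in the Haspin-KO libraries, or 1.79 and 1.73 CPM against 3.20 and 1.12 CPM. The Haspin-KO libraries lay on either side of the WT libraries. Between groups the log2 fold change was 0.30 (95% interval -0.69 to 1.29, standard error 0.44, adjusted p = 0.746), and it was -0.65 without Haspin-KO replicate 1 and 0.86 without Haspin-KO replicate 2. The ligand genes were more abundant than the receptor, with Pdgfa at 30.5 ± 2.89 FPKM in WT and 33.4 ± 0.161 FPKM in Haspin-KO cells and Pdgfc at 4.79 ± 0.567 and 5.37 ± 0.196 FPKM, and neither passed the test (adjusted p = 0.450 and 0.489). Pdgfrb, the paralog of Pdgfra that fibroblasts and pericytes express, fell in Haspin-KO cells, from 2.17 ± 0.321 to 1.21 ± 0.0858 FPKM (log2 fold change -0.85 with a standard error of 0.18, adjusted p = 0.0392). Its adjusted p was 0.239 without WT replicate 1 and 0.0783 without WT replicate 2.

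Dab2 (ENSMUSG00000022150, chromosome 15 from 6299788 to 6440712, plus strand) encodes an endocytic adaptor through which endoderm cells take up receptors and keep their position at the surface. It had 657 and 460 counts in WT and 458 and 332 in Haspin-KO, or 30.1 and 26.5 CPM against 31.9 and 23.3 CPM. The Haspin-KO libraries lay above and below both WT libraries. The fitted log2 fold change was -0.040 with a standard error of 0.15 (adjusted p = 0.914), and its 95% interval from -0.38 to 0.30 corresponds to ratios from 0.768 to 1.23. Its sign changed to 0.051 without WT replicate 1 and to 0.17 without Haspin-KO replicate 2.

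Cubn (ENSMUSG00000026726, chromosome 2 from 13276338 to 13491813, minus strand) encodes cubilin, the large uptake receptor of the visceral endoderm, and had the largest log2 fold change of the 8 genes tested. It had 15 and 10 counts in the WT libraries and 32 and 15 in the Haspin-KO libraries, or 0.687 and 0.577 CPM against 2.23 and 1.05 CPM. The filter asks for a minimum CPM in 2 libraries, and of the WT libraries only replicate 1 reached it. Cubn thus entered the test only with its Haspin-KO libraries, where it was higher, and its rank depends in part on that. In the fit without the filter its log2 fold change was 1.33 (adjusted p = 0.0595 in edgeR). Both Haspin-KO libraries were above both WT libraries, and the Haspin-KO libraries differed from each other more than the WT libraries did. Its log2 fold change was 1.36 (standard error 0.46, 95% interval 0.32 to 2.40), with a p of 0.0160 in edgeR before adjustment and 0.143 after it. It was 0.72 without Haspin-KO replicate 1 and 1.79 without Haspin-KO replicate 2, where the adjusted p was 0.0303. Amn (ENSMUSG00000021278, chromosome 12 from 111271095 to 111276426, plus strand), the membrane partner that carries cubilin to the cell surface, had 19 and 5 counts in WT and 7 and 5 in Haspin-KO, or 0.870 and 0.288 CPM against 0.487 and 0.350 CPM. The Amn values of Haspin-KO lay between those of WT, and its log2 fold change in the fit without the filter was -0.54 (95% interval -1.76 to 0.69, standard error 0.61, adjusted p = 0.773). Lrp2, or megalin, which works with cubilin in uptake, was at 8.46 ± 0.450 FPKM in WT and 10.1 ± 1.68 FPKM in Haspin-KO cells (log2 fold change 0.24 with a standard error of 0.10, adjusted p = 0.217).

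Lama1 (ENSMUSG00000032796, chromosome 17 from 67697259 to 67822647, plus strand) encodes the alpha chain of the first laminin of the embryo. It had 2418 and 2134 counts in the WT libraries and 1399 and 1409 in the Haspin-KO libraries, or 110.7 and 123.1 CPM against 97.4 and 98.7 CPM. The Haspin-KO libraries lay close together and below the WT libraries. Lama1 had a log2 fold change of -0.25 (standard error 0.083, 95% interval -0.44 to -0.067), a ratio of 0.839, with a p of 0.0131 before adjustment and 0.131 after it. With each library left out in turn, it stayed between -0.33 and -0.17. The beta and gamma chains that assemble with it were at 5.21 ± 0.0703 FPKM (Lamb1) and 96.8 ± 2.16 FPKM (Lamc1) in WT cells and at 4.95 ± 0.0536 and 102.6 ± 0.912 FPKM in Haspin-KO cells, and neither passed the test (adjusted p = 0.654 and 0.525).

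**Figure D2:**
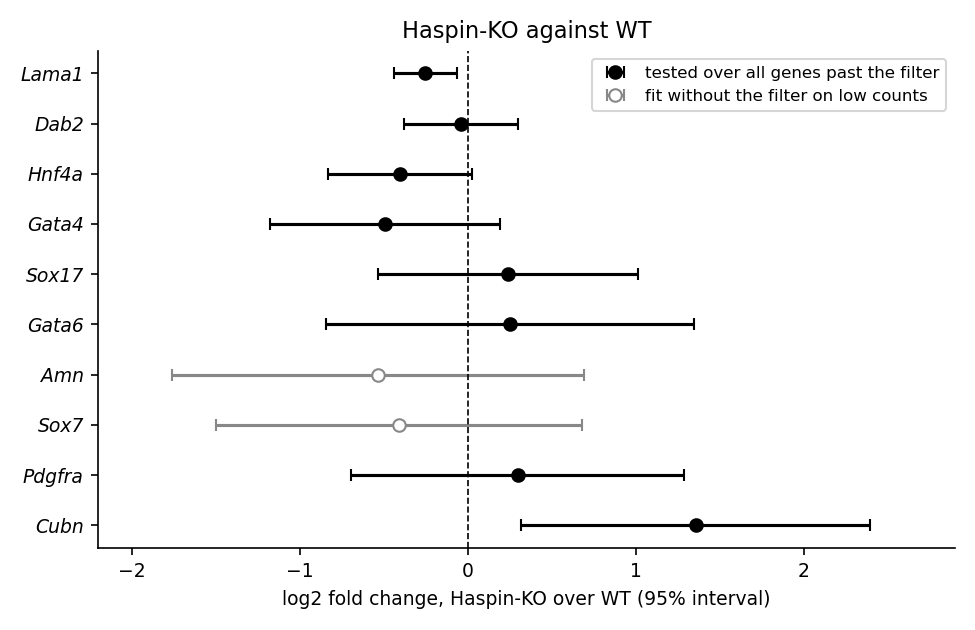
log2 fold change of each primitive endoderm gene, Haspin-KO over WT, as points with 95% intervals. Filled points are the 8 genes tested and open points the fit without the filter on low counts for Amn and Sox7, and the intervals of Lama1 (-0.44 to -0.067) and Cubn (0.32 to 2.40) alone leave out 0, before adjustment over all genes.

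Over the 8 genes tested, the median log2 fold change was 0.10, with 4 genes on each side of 0, against a median of -0.0039 over all genes tested. With Amn and Sox7 included, the fit without the filter gave a median of -0.17, so the sign of the median depended on which genes entered it. Both Haspin-KO libraries lay below WT for 2 of the 8 genes (Hnf4a and Lama1) and above for 1 (Cubn), against 26.9% and 25.3% of all genes tested, or 52.3% in either direction. Cubn passed the filter on low counts only with its Haspin-KO libraries. The intervals differed in width. Lama1 and Dab2, the genes with the most counts, had standard errors of 0.083 and 0.15, whereas those of Gata6 and Pdgfra were 0.49 and 0.44, and their intervals took in a change of 1.5-fold in either direction. The standard error of Gata6 was larger than that of Sox17 (0.49 against 0.34) although Gata6 had more counts in sum.

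The spread within groups was larger than the difference between groups for Gata4 and Gata6. The ratio of the CPM of replicate 1 to that of replicate 2 is given with a 95% interval that covers counting error only (exact, from the binomial distribution of the counts of both libraries). For Gata6 this ratio was 2.85 (1.64 to 5.20) in WT and 1.99 (1.17 to 3.48) in Haspin-KO cells. For Gata4 it was 1.53 (1.11 to 2.13) and 1.56 (1.00 to 2.46). Both GATA factors were thus higher in replicate 1 of each group by more than counting error, for Gata4 in Haspin-KO by little. Pdgfra differed between the Haspin-KO libraries, with a ratio of 2.86 (1.59 to 5.41), and the WT interval included 1 (1.03, 0.625 to 1.72). Sox7 went the other way in WT, with a ratio of 0.376 (0.1498 to 0.872). The interval left out 1 for 7 of the 10 genes in WT and for 5 of the 10 in Haspin-KO. The share over all genes was not counted, so these counts do not set the 10 genes apart. With many counts a small difference is enough, as for Lama1 in WT (0.899, 0.848 to 0.953). By sign alone, replicate 1 was the higher library in both groups for 7 genes (Gata4, Gata6, Sox17, Pdgfra, Dab2, Cubn and Amn). It was the lower in both for 3 (Hnf4a, Lama1 and Sox7), whereas 30.9% and 30.7% of all genes tested did the same. Only for Gata4, Gata6 and Dab2 did the interval leave out 1 in both groups. Sox7 had 8 counts in each Haspin-KO library, so its sign there came from the scaling alone. Sox7 and Amn are not among the genes tested. No label says what libraries with the same number share.

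**Figure D3:**
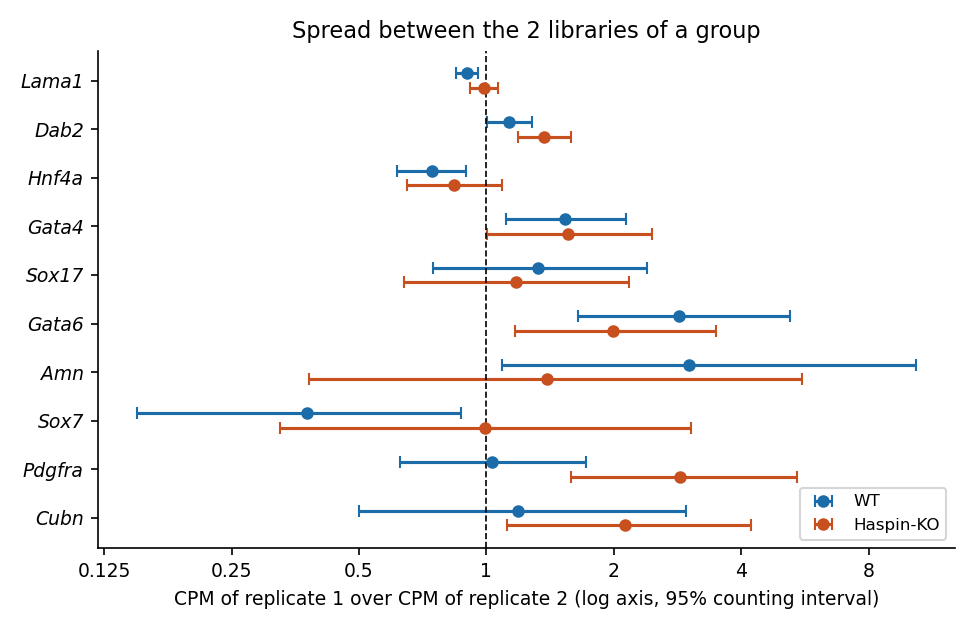
CPM of replicate 1 divided by CPM of replicate 2 on a log axis, within WT (blue) and within Haspin-KO (orange), with 95% counting intervals. Gata6 sits at 2.85 in WT and 1.99 in Haspin-KO and Gata4 at 1.53 and 1.56, all to the right of 1.

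The wider endoderm and signalling genes were described from lists. Beside the counts of every list stand the shares of all genes tested in edgeR. These were 1.51% lower and 0.988% higher at an adjusted p under 0.05, and 10.4% in each direction at an unadjusted p under 0.05. Upstream of the primitive endoderm, 1 of 20 tested genes of FGF and PDGF signalling rose in Haspin-KO cells and 0 fell. The gene was Etv5, an ETS factor that FGF-ERK signalling induces, at 85.3 ± 4.32 FPKM in WT and 125.2 ± 3.93 FPKM in Haspin-KO cells (log2 fold change 0.55 with a standard error of 0.074, adjusted p = 0.00767). Other targets in the list did not pass, with log2 fold changes of -0.038 (Etv4), -0.23 (Spry2), 0.044 (Spry4) and 0.64 (Dusp6). Their adjusted p in edgeR were 0.909, 0.333, 0.981 and 0.545. Spry4 differed between replicates, at 25.6 and 121.1 CPM in WT and 22.6 and 127.4 CPM in Haspin-KO. Dusp6 did too, at 14.2 and 44.6 CPM against 19.8 and 71.0 CPM. The ligand Fgf4 was at 45.6 ± 6.18 and 49.9 ± 8.77 FPKM, and the receptors Fgfr1 (18.4 ± 0.826 and 18.2 ± 0.495 FPKM) and Fgfr2 (0.516 ± 0.142 and 0.440 ± 0.120 FPKM) did not pass the test either (adjusted p = 0.597 for Fgf4, 0.910 for Fgfr1 and 0.643 for Fgfr2).

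Of 29 visceral endoderm genes, 14 were tested and 0 passed in either direction, with a median log2 fold change of -0.16 (4 at an unadjusted p under 0.05). Of the serum proteins that this layer secretes, Ttr, Apoa4, Apoc2 and Fgb had 0 counts in all libraries. Afp and Apoa1 had 2 counts in 1 library each, Fga had 1 count in 1 library, and Apoa2 had 0 or 1 in each library. Others were detected in every library, among them transferrin (Trf), with 138 and 132 counts in WT and 99 and 105 in Haspin-KO. Scaled, Trf was at 6.32 and 7.61 CPM against 6.89 and 7.35 CPM (adjusted p = 0.937 in edgeR). Rbp4 had 22 and 11 against 10 and 10 counts, or 1.01 and 0.635 CPM against 0.696 and 0.700 CPM (adjusted p = 0.796 in edgeR). Apob, the main protein of secreted lipid particles, had 53 and 33 counts in WT and 54 and 58 in Haspin-KO, and its CPM were above WT in both Haspin-KO libraries (log2 fold change 0.84, unadjusted p = 0.0110 and adjusted p = 0.121 in edgeR). These secreted proteins were named after their values were seen. A count of 0 allows up to 0.137 to 0.211 CPM, for counting error only. Apoe, a lipid carrier that mESCs also make, was the most abundant of the list at 243.6 ± 11.7 and 196.5 ± 19.9 FPKM (adjusted p = 0.0934 in edgeR and 0.0457 in DESeq2, which called 1 gene of the list), followed by Apom at 5.50 ± 1.62 and 4.76 ± 1.13 FPKM (adjusted p = 0.672).

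Of 15 tested parietal endoderm genes, 2 rose and 0 fell, with a median of 0.095 (3 higher and 0 lower at an unadjusted p under 0.05 in edgeR). Col4a1, a chain of basement membrane collagen, was at 7.43 ± 0.130 FPKM in WT and 9.86 ± 0.164 FPKM in Haspin-KO cells (log2 fold change 0.40 with a standard error of 0.082, adjusted p = 0.0359). Tfpi, an inhibitor of coagulation, was at 4.78 ± 0.569 and 7.37 ± 0.820 FPKM (log2 fold change 0.62 with a standard error of 0.13, adjusted p = 0.0388). Neither is specific to endoderm. Without WT replicate 1 or without WT replicate 2, the adjusted p was 0.161 and 0.138 for Col4a1 and 0.215 and 0.0736 for Tfpi. Nid2, a linker of laminin to collagen, was at 92.7 ± 7.82 and 99.3 ± 3.54 FPKM and did not pass the test (adjusted p = 0.538).

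In limma's test on log2(FPKM + 0.1), 0 of 14782 genes had an adjusted p under 0.05, so that Etv5, Col4a1, Tfpi and Pdgfrb did not pass there either, with adjusted p of 0.112, 0.131, 0.154 and 0.162. In edgeR without the filter on low counts, these 4 genes passed and further genes were called, among them Apoe, Lefty1 and Foxa3 of the visceral endoderm list (adjusted p = 0.00234, 0.00569 and 0.0126), Mapk3 of FGF signalling, Lrp5 of the endocytic partners, Lama2 and Itga3 of the laminin list and Klf4, all lower in Haspin-KO cells, and Lama3, which was higher.

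Among 17 tested partners of the endocytic receptors, of which Cltc (86.3 ± 0.901 and 98.4 ± 0.897 FPKM) and Ap2s1 (49.3 ± 5.41 and 40.9 ± 4.19 FPKM) were the most abundant, 0 passed, with a median of -0.033 (0 in DESeq2, and 5 at an unadjusted p under 0.05 in edgeR). Of 19 tested laminins and laminin receptors 0 passed, with a median of 0.048 (5 at an unadjusted p under 0.05), whereas DESeq2 called 1 higher, Lama3. The unadjusted counts of both lists stand against 10.4% of all genes tested in each direction. Of 12 tested paralogs of the primitive endoderm genes, 1 fell (Pdgfrb) and 0 rose, with Lama5 at 36.5 ± 0.882 and 37.9 ± 4.21 FPKM and Kit at 31.4 ± 1.42 and 28.8 ± 0.0978 FPKM as the most abundant.

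**Figure D4:**
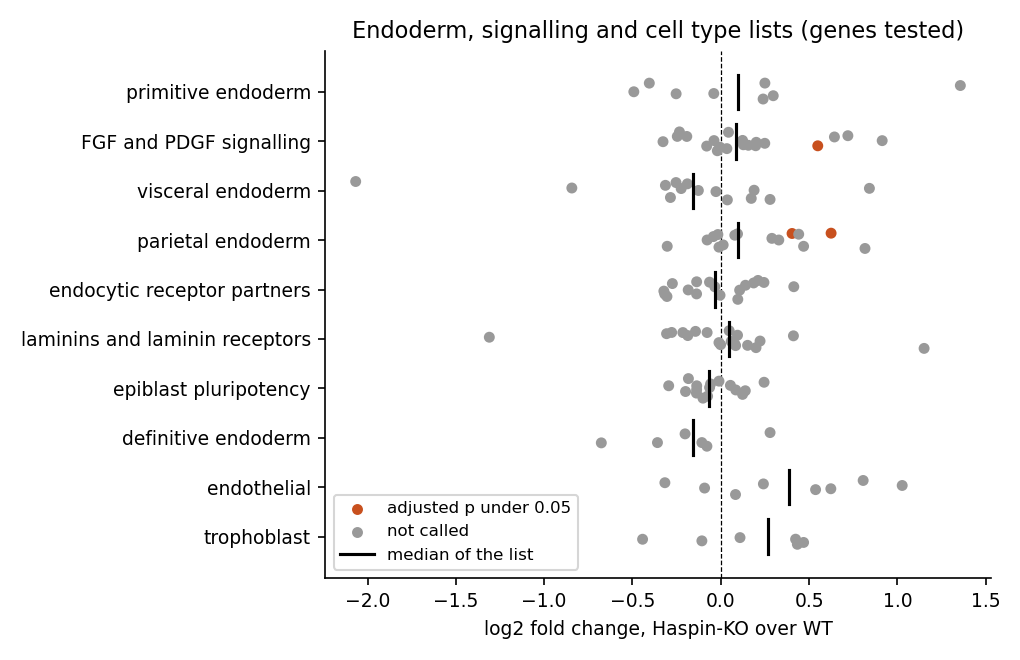
log2 fold change of the tested genes of each list, Haspin-KO over WT, with 1 point per gene, orange where the adjusted p was under 0.05, and a black bar at the median of the list. The 8 primitive endoderm genes spread from -0.49 to 1.36 around a median of 0.10 and none is orange.

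Markers of other cells that express some of these genes were counted as well. Of 18 tested fibroblast markers, 12 fell in Haspin-KO cells, Pdgfrb among them, and 0 rose. Col1a2 fell from 2.15 ± 0.315 to 0.0393 ± 0.000445 FPKM (log2 fold change -5.76, adjusted p = 7.8e-06), and Col1a1, Col3a1 and Acta2 also fell, with log2 fold changes of -4.61, -6.02 and -3.43. Lox had 1215 and 657 counts in WT and 0 in each Haspin-KO library. The summed FPKM of all 24 fibroblast markers were 203.0 and 194.9 in WT and 156.2 and 153.3 in Haspin-KO. Most of this was Fn1 (136.5 ± 7.19 and 138.9 ± 2.75 FPKM, adjusted p = 0.901), and without it the sums were 71.6 and 53.3 against 15.3 and 16.3. Of the 24 markers, 6 had 0 counts in both Haspin-KO libraries and 1 in both WT libraries. MEFs are known to express Pdgfra, and the part of fibroblast RNA in the values of Pdgfra and of the other primitive endoderm genes was not tested.

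Endothelial cells express Sox7 and Sox17. Of 8 tested endothelial markers 0 passed, with a median log2 fold change of 0.39, and Pecam1 (18.9 ± 2.68 and 20.1 ± 2.62 FPKM) and Egfl7 (5.22 ± 0.0917 and 4.201 ± 0.0766 FPKM) were the most abundant. Of the 12 listed, Emcn had 0 counts in all libraries and Cdh5 had 2 to 7, whereas Tek had 222 to 263. In CPM, Tek was at 11.0 and 12.8 in WT and at 16.1 and 18.4 in Haspin-KO. Its log2 fold change was 0.54 (unadjusted p = 0.00499 and adjusted p = 0.0869 in edgeR). Emcn, Cdh5 and Tek were named after their values were seen. Of 6 tested definitive endoderm markers 0 passed, with Trh at 81.5 ± 17.3 and 70.8 ± 17.5 FPKM and Eomes at 9.32 ± 3.77 and 8.61 ± 3.27 FPKM. Of 6 tested trophoblast markers 0 passed, with Tfap2c at 7.996 ± 2.74 and 8.71 ± 3.48 FPKM. In edgeR's test at an unadjusted p under 0.05, 3 endothelial markers were counted (2 higher and 1 lower in Haspin-KO cells). For definitive endoderm and trophoblast markers the count was 0 each, against 10.4% of all genes in each direction. DESeq2 called 0 of the 3 lists.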

How the data were processed

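RNA-seq libraries of WT and Haspin-KO mESCs (2 each) were analysed from the deposited table. The authors used Cutadapt (v1.9.1) for trimming and HISAT2 (v2.0.1) for mapping, to mm10, and deposited raw counts per Ensembl gene without normalization. HTSeq (0.6.1) is among the tools in the submitters' processing notes, and its strand setting and treatment of multi-mapped reads are not given in the sources used here. The authors also deposited FPKM, recomputed here from counts, exonic length and library totals with a largest difference of 0 after rounding. Exonic lengths of all 10 genes equal those of GENCODE M21, whose exons of 5 of these genes overlap exons of another gene.

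Counts were filtered with edgeR's default filter, normalized by TMM and tested with edgeR (4.0.16) in R (4.3.3) by the quasi-likelihood test without a block. A standard error was taken as the size of the log2 fold change over the root of the F statistic. A call is an adjusted p under 0.05. DESeq2 (1.42.0), limma (3.58.1), other normalizations and filters, a block and leaving out each library were alternatives. The code was tested on simulated data. The 10 genes and the gene lists were chosen with earlier results of these data known, so no p is adjusted over a list alone. Named beyond the 10 genes were, from each list, up to 4 called genes by smallest p, the 2 with the highest FPKM, and ligands, partners or paralogs. Replicate ratios were added after values were seen.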

Additional observations from a re-analysis of the deposited data

How the results depend on the processing

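In edgeR's test, 0 of the 8 genes tested were called in either direction. The count was also 0 with DESeq2's size factors, library totals, no filter (10 genes fitted) and at least 10 counts in every library. DESeq2 called 0 of the 4 genes to which it gave an adjusted p (1 at an unadjusted p under 0.05). Limma with a pseudocount of 0.1 or 1 called 0 of the 4 genes fitted (1 at an unadjusted p under 0.05 each). Cubn had no adjusted p in DESeq2 and was not fitted in limma, so it could not be called there. In the model with the replicate block, 2 genes were called lower (Hnf4a, log2 fold change -0.40, adjusted p = 0.0344, and Lama1, -0.25, adjusted p = 0.00179) and 1 was higher (Cubn, 1.37, adjusted p = 0.00994), while the block called 11.2% of all genes lower and 11.4% higher, over 7 times the shares without it. Over all genes, edgeR called 236 lower and 154 higher with the filter and 724 and 448 without it. The block left 1 residual degree of freedom. The prior degrees of freedom in edgeR, the weight given to the spread pooled over genes, were infinite with the block and 7.419 without it. Deviations of same-numbered libraries correlated with r = 0.289 across 15580 genes, which are not replicates, and with 2 pairs and no label that pairs them, the numbers were not taken as a pairing. With each library left out, the count on the lower side was 0 and that on the higher side 0 to 1 (Cubn, without Haspin-KO replicate 2). The log2 fold changes then ranged from -0.28 to 0.17 for Dab2, -0.33 to 1.22 for Gata6, -0.65 to 0.86 for Pdgfra and 0.72 to 1.79 for Cubn. Of 88 single-gene values under 12 alternatives, 79 kept direction and were not called, 5 changed sign and 4 became called. Among the 79 are the DESeq2 values of Cubn, Gata6, Pdgfra and Sox17. These had no adjusted p and could not be called, so they kept direction only. The median over the genes fitted ranged from -0.31 to 0.11. The causes were not tested. The intervals of Gata6, Sox17, Pdgfra and Cubn, all under 100 counts per library, take in changes of over 1.5-fold.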

Other observations

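Genes of the lists above that stood near the threshold in edgeR were chosen after their values were seen. Foxa3, a forkhead factor of the visceral endoderm and liver, had 28 and 19 counts in WT and 2 and 6 in Haspin-KO (log2 fold change -2.07 with a standard error of 0.54, adjusted p = 0.0793 in edgeR). Lefty1, a secreted Nodal antagonist of the anterior visceral endoderm that mESCs also express, was at 9.02 and 7.61 CPM in WT and 4.73 and 4.55 CPM in Haspin-KO (log2 fold change -0.84, with a standard error of 0.19 and adjusted p = 0.0559). Lama3, a laminin alpha chain of epithelia, was at 4.81 and 2.88 CPM in WT and 10.5 and 6.79 CPM in Haspin-KO (log2 fold change 1.15, with a standard error of 0.29 and adjusted p = 0.0711). None of these passed in edgeR with the filter on low counts. All 3 passed without the filter (adjusted p = 0.0126 for Foxa3, 0.00569 for Lefty1 and 0.000762 for Lama3), and DESeq2 called Lama3 alone (adjusted p = 0.0397).

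The higher level of Gata4 and Gata6 in replicate 1 of each group was shared by Gata2, a paralog of trophoblast and blood, at 21.1 and 10.2 CPM in the WT libraries and 25.5 and 11.0 CPM in the Haspin-KO libraries. It was also seen for Tfap2c, at 36.5 and 22.4 CPM against 40.7 and 23.3 CPM, and for Krt18, a keratin of extraembryonic epithelia, at 26.0 and 10.8 CPM against 35.3 and 15.3 CPM. Gata3 did not share it, at 3.89 and 4.73 CPM in WT and 6.82 and 4.69 CPM in Haspin-KO. Eomes, a factor of trophoblast and of early endoderm and mesoderm, went the other way in both groups, at 27.6 and 50.1 CPM in WT and 25.9 and 45.9 CPM in Haspin-KO. The median log2 ratio of replicate 1 to replicate 2 was 0.59 in WT and 0.77 in Haspin-KO over the tested trophoblast markers, against 0.00043 and 0.00051 over all genes tested, and -0.077 and -0.056 over the epiblast pluripotency genes. The choice of these genes followed a look at their values, and what the replicate number stands for was not tested.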
